A study of Mus musculus with 6 samples.

Results

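Voltage-gated sodium channels were examined in the P20 forebrain through 6 genes, taken by their symbols. They were the 4 genes for the pore-forming alpha subunits of central neurons, Scn1a, Scn2a, Scn3a and Scn8a, and the beta subunit genes Scn2b and Scn3b, out of 35523 genes measured. RNA-Seq was performed on 3 Slc13a4+/- mice (Nas2Del_Het_1024, Nas2Del_Het_1025 and Nas2Del_Het_1027) and 3 wild-type mice (Nas2Del_WT_1016, Nas2Del_WT_1018 and Nas2Del_WT_1026), at postnatal day 20 and on a C57BL/6 background. The Slc13a4+/- mice, labelled Nas2Del +/- Het by the submitters, lacked 1 allele of the sulfate transporter gene Slc13a4, which came from heterozygous fathers crossed to wild-type females, so no Cre driver limits the loss to a cell type. The study asked which pathways need sulfate during postnatal brain development. The wild-type mice were littermates, but the sources used here give neither the sex nor the litter of each mouse. Each mouse is a separate animal, and each library is the whole forebrain.

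The alpha subunit is a single long protein that forms the sodium-selective pore and its voltage sensors, and its opening drives the rising phase of the action potential. Scn2a and Scn3a dominate in the immature rodent brain, Scn3a declines after birth, and Scn1a and Scn8a rise as neurons mature. Scn1a is prominent in parvalbumin interneurons, while Scn8a becomes the main channel of the axon initial segment and of the nodes of Ranvier. Beta subunits are small membrane proteins with an immunoglobulin-like domain that modify gating and surface levels. Scn2b is bound to the alpha subunit by a disulfide bond and Scn3b is not.

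Scn3a (chr2:65457118-65567627, minus strand), Scn2a (chr2:65620771-65767447, plus strand) and Scn1a (chr2:66270778-66440840, minus strand) lie in a cluster on chromosome 2 of GRCm38. Scn8a lies at chr15:100869858-101045938, Scn3b at chr9:40269217-40291618 and Scn2b at chr9:45117782-45130070, all on the plus strand. Early in the coding part of Scn2a, Scn3a and Scn8a the GENCODE M21 annotation holds a pair of neighbouring exons of 92 bases that replace each other. The upstream exon is known as 5N (neonatal) and the downstream exon as 5A (adult), and they code for part of the first voltage-sensing domain. The 5A exons are shown, with the exon that Scn1a has at this place, because this is the part of the genes by which adult forms of the channel are recognised and because reads from it can match several genes. Each is given in the direction of transcription, and capitals mark the bases that differ from the 5A exon of Scn2a.
Scn2a 5A, chr2:65682690-65682781: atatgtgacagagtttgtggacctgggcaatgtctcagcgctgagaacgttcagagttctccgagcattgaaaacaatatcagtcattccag
Scn3a 5A, chr2:65525695-65525786: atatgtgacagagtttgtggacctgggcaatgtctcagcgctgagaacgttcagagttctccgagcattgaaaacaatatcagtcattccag
Scn8a 5A, chr15:100959603-100959694: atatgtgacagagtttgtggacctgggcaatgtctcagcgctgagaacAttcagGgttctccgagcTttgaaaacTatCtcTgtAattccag
Scn1a, its only annotated exon of 92 bases, chr2:66332207-66332298: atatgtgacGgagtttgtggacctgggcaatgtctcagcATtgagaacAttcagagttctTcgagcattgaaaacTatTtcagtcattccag

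The 5A exons of Scn2a and Scn3a were identical at all 92 bases. Those of Scn2a and Scn8a shared 85 of 92 bases, as did the exon of Scn1a and 5A of Scn2a, and the exons of Scn1a and Scn8a shared 83. A read that lies wholly inside the 5A exon therefore cannot be assigned to Scn2a or Scn3a by its sequence.

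Libraries of the Slc13a4+/- mice held 69260309 to 78070813 estimated counts and wild-type libraries 60340337 to 80410582. Nas2Del_WT_1026 stood apart from the other wild-type mice. The chi-square per gene between its counts and theirs was 34.1 and 40.4. It was 7.62 between Nas2Del_WT_1016 and Nas2Del_WT_1018 and 6.61 to 11.9 between Slc13a4+/- mice. From the Slc13a4+/- mice, Nas2Del_WT_1026 lay at 15.2 to 22.2 and the other wild-type mice at 14.1 to 22.7. Nas2Del_WT_1026 was thus no further from the other genotype than they were. Values without Nas2Del_WT_1026 are therefore given for the fold changes of the 6 genes and of Slc13a4. They are also given for shares, transcripts and marker sums where the groups in TPM no longer overlapped without it. In such comparisons the wild-type mice, Nas2Del_WT_1016 and Nas2Del_WT_1018, have lower animal numbers than all Slc13a4+/- mice. Genotype and the order of animal numbers then cannot be told apart. Slc13a4 itself had a TPM of 3.98, 4.39 and 3.56 in the Slc13a4+/- mice and 6.65, 5.97 and 5.50 in the wild-type mice. These groups did not overlap, and the log2 fold change of Slc13a4+/- over wild-type was -0.67 (SE 0.11), for which edgeR gave an adjusted p of 0.499 and DESeq2 an adjusted p of 0.00240. In edgeR the call turned on the mice and the filter. Without Nas2Del_WT_1026 the value was -0.76 (SE 0.10, adjusted p = 0.0588), and with no filter on low counts it was -0.67 (SE 0.10, adjusted p = 0.00212).

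Scn2a was the most abundant of the 6 genes. Levels of different genes were compared in TPM, a share of transcripts scaled by transcript length and library size, over the 6 mice. The mean TPM was 228 ± 12.5 (SD, n = 6) for Scn2a, 150.4 ± 4.46 for Scn2b, 99.4 ± 7.75 for Scn8a, 85.9 ± 2.18 for Scn3b, 85.8 ± 3.75 for Scn1a and 30.4 ± 2.90 for Scn3a. Each gene was above the next in 6 of 6 mice except Scn3b and Scn1a, which changed places in 3 of 6. An exact two-sided sign-flip test of neighbours in this order gave p = 0.03125, the smallest that 6 mice allow, for 4 of the 5 pairs (adjusted p = 0.0391). The order was taken from these same values, so this p only restates that the gene was above in 6 of 6 mice. For Scn3b against Scn1a the exact test gave p = 0.969. Scn3a was thus the lowest, 2.83-fold below Scn1a, and was still present in every mouse with 6028 to 9019 estimated counts.

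**Figure D1:**
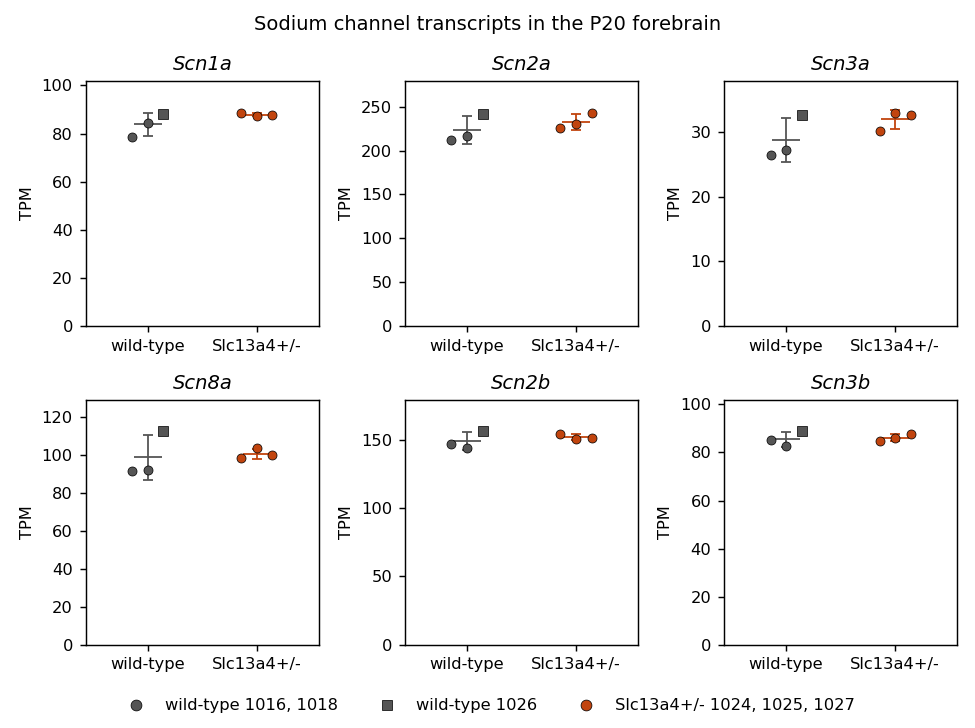
Level of each sodium channel gene in TPM (vertical axes, from 0) in each wild-type (grey, Nas2Del_WT_1026 as a square) and Slc13a4+/- (orange) mouse, with the group mean and SD as bars. The 2 genotypes overlap for all 6 genes, and Nas2Del_WT_1026 is the highest wild-type mouse for each of them.

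None of the 6 genes passed the test for a difference between Slc13a4+/- and wild-type mice. edgeR called 0 of 6 at an adjusted p under 0.1 and 0 of 6 at an unadjusted p under 0.05. Over all 17096 genes tested these rules called 0.00585% and 9.15%. DESeq2 called 0 of 6, against 0.487% of 17659 genes. The normalised counts of the 2 genotypes overlapped for every member, while all Slc13a4+/- mice were above all wild-type mice for 7.26% of genes. In bulk tissue, fewer cells of a type and less RNA per cell cannot be told apart.

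Scn1a, in which human loss-of-function variants cause Dravet syndrome, had a TPM of 88.5, 87.2 and 87.6 in the Slc13a4+/- mice and 78.7, 84.6 and 88.3 in the wild-type mice. The Slc13a4+/- mice lay in a narrow band around the highest wild-type mouse. The log2 fold change was 0.03 (SE 0.04, 95% confidence interval -0.07 to 0.13, edgeR adjusted p = 0.830).

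Scn2a, the early channel of the axon initial segment and of unmyelinated axons, had a TPM of 225, 230.0 and 243 in the Slc13a4+/- mice and 212, 217 and 242 in the wild-type mice. Nas2Del_WT_1016 and Nas2Del_WT_1018 were the lowest and the other wild-type mouse was among the highest. The log2 fold change was 0.04 (SE 0.06, interval -0.10 to 0.17, edgeR adjusted p = 0.864).

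Scn3a, the channel of the embryonic and newborn brain, had the largest fold change of the 6. Its TPM was 30.2, 32.9 and 32.7 in the Slc13a4+/- mice (31.9 ± 1.49, SD, n = 3) and 26.5, 27.3 and 32.7 in the wild-type mice (28.8 ± 3.38). All 3 Slc13a4+/- mice were above Nas2Del_WT_1016 and Nas2Del_WT_1018, and Nas2Del_WT_1026 was at their level. The log2 fold change was 0.10 (SE 0.06, interval -0.04 to 0.25, edgeR adjusted p = 0.641), and DESeq2 gave 0.12 (SE 0.08, adjusted p = 0.866).

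Scn8a, the main channel of mature nodes and initial segments, had a TPM of 98.4, 103 and 99.6 in the Slc13a4+/- mice and 91.2, 92.04 and 112 in the wild-type mice. The wild-type mice lay on both sides of the Slc13a4+/- mice, and Nas2Del_WT_1026 was the highest of all. The log2 fold change was 0.01 (SE 0.08, interval -0.16 to 0.18, edgeR adjusted p = 0.980).

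The beta subunit genes had the smallest fold changes. Scn2b had a TPM of 154, 150.2 and 151 in the Slc13a4+/- mice and 147, 144 and 156 in the wild-type mice, with a log2 fold change of 0.00 (SE 0.04, interval -0.09 to 0.10, edgeR adjusted p = 0.979). Scn3b had a TPM of 85.0, 85.8 and 87.8 in the Slc13a4+/- mice and 85.2, 82.6 and 88.8 in the wild-type mice, with a log2 fold change of 0.00 (SE 0.04, interval -0.09 to 0.09, edgeR adjusted p = 0.986). For both genes the Slc13a4+/- mice lay inside the wild-type range.

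The values of the alpha subunit genes turned on Nas2Del_WT_1026. In TPM, all Slc13a4+/- mice were above Nas2Del_WT_1016 and Nas2Del_WT_1018 for 5 of the 6 genes, Scn3b being the exception, as was the case for 24.2% of 17096 genes. Without Nas2Del_WT_1026, edgeR called Scn3a alone among the 6 (log2 fold change 0.18, SE 0.04, adjusted p = 0.0930), where 1.29% of 17337 genes were called. DESeq2 without Nas2Del_WT_1026, chosen after seeing the data, called Scn3a (0.22, SE 0.05, adjusted p = 0.00286) and Scn8a (0.10, SE 0.04, adjusted p = 0.0974), where 6.54% of 11013 genes were called. In edgeR without this mouse Scn2a had 0.11 (SE 0.03, adjusted p = 0.151) and Scn8a 0.11 (SE 0.03, adjusted p = 0.164). With Nas2Del_WT_1026 as the only wild-type mouse against the 3 Slc13a4+/- mice, Scn3a had -0.02 (SE 0.05, adjusted p = 0.894) and Scn8a -0.16 (SE 0.04, adjusted p = 0.241). The estimates for Scn2a, Scn3a and Scn8a were thus above 0 against Nas2Del_WT_1016 and Nas2Del_WT_1018 and below 0 against Nas2Del_WT_1026. In the fits without Nas2Del_WT_1026, a difference by genotype cannot be told apart from a difference by the order of animal numbers.

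**Figure D2:**
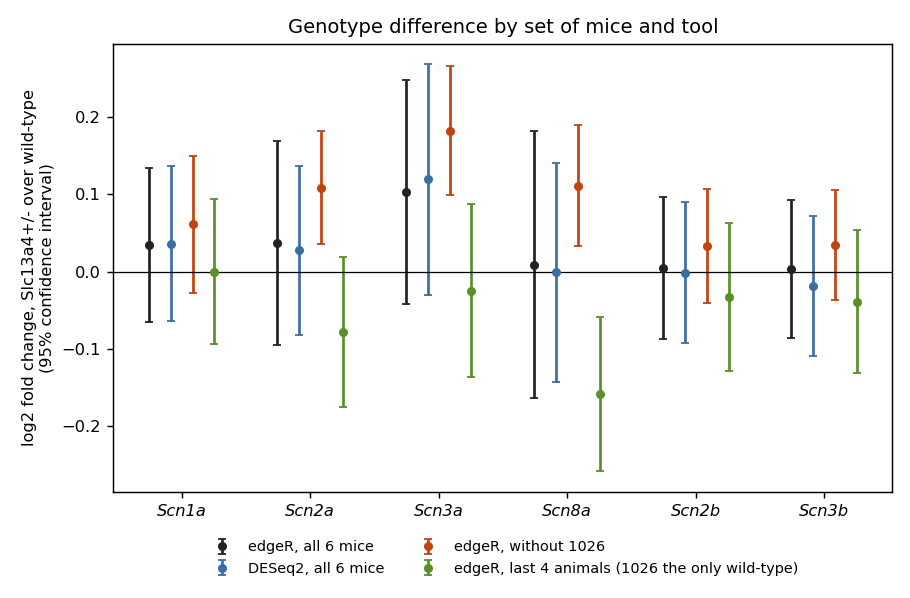
Log2 fold change of Slc13a4+/- over wild-type (vertical axis) with its 95% confidence interval for each gene, by tool and set of mice. In the edgeR and DESeq2 fits drawn for all 6 mice, which have no covariate, every interval includes 0. Without Nas2Del_WT_1026 the values for Scn2a, Scn3a and Scn8a are 0.11, 0.18 and 0.11, and with Nas2Del_WT_1026 as the only wild-type mouse they are -0.08, -0.02 and -0.16.

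The balance of the alpha genes was close in the 2 genotypes. Of their summed TPM, Scn2a held 51.4% ± 0.970 in the Slc13a4+/- mice and 51.5% ± 0.542 in the wild-type mice (SD, n = 3). Scn8a held 22.2% ± 0.631 and 22.6% ± 0.914, and Scn1a held 19.4% ± 0.560 and 19.3% ± 0.750. The exact permutation test gave p = 0.9, 0.6 and 1 for these shares.

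Scn3a, the remnant of the immature set, held 6.84%, 7.27% and 7.06% in the Slc13a4+/- mice and 6.47%, 6.48% and 6.88% in the wild-type mice. Nas2Del_WT_1026 was the highest wild-type mouse and overlapped the Slc13a4+/- Nas2Del_Het_1024. The exact two-sided permutation test gave p = 0.2 (adjusted p = 0.933 over 8 shares and ratios), and 3 mice against 3 cannot go below 0.1. As a share of estimated counts, which are not scaled by length, Scn3a held 6.98%, 7.27% and 7.25% against 6.79%, 6.79% and 6.91%. On that scale all Slc13a4+/- mice were above all wild-type mice, Nas2Del_WT_1026 included, at the smallest p of 0.1, unadjusted. The same was found for Scn3a as a percentage of Scn2a in counts, which uses the same Scn3a counts. It was 14.7, 15.4 and 14.9 against 14.2, 14.3 and 14.5 (exact permutation p = 0.1), while in TPM the groups overlapped (p = 0.3). The Scn3a share in TPM also overlapped with protein-coding transcripts only, and with all alpha genes in the sum (exact permutation p = 0.2 each). Without Nas2Del_WT_1026 the Scn3a share in TPM did not overlap, and the difference in its mean was 0.576 percentage points in place of 0.440. Scn3a as a percentage of Scn2a in TPM did not overlap then either, with a difference of 1.22 in place of 0.880 percentage points. The difference in the Scn8a share turned from -0.419 to 0.0938 percentage points and that in the Scn1a share from 0.0727 to -0.287, both with overlap.

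**Figure D3:**
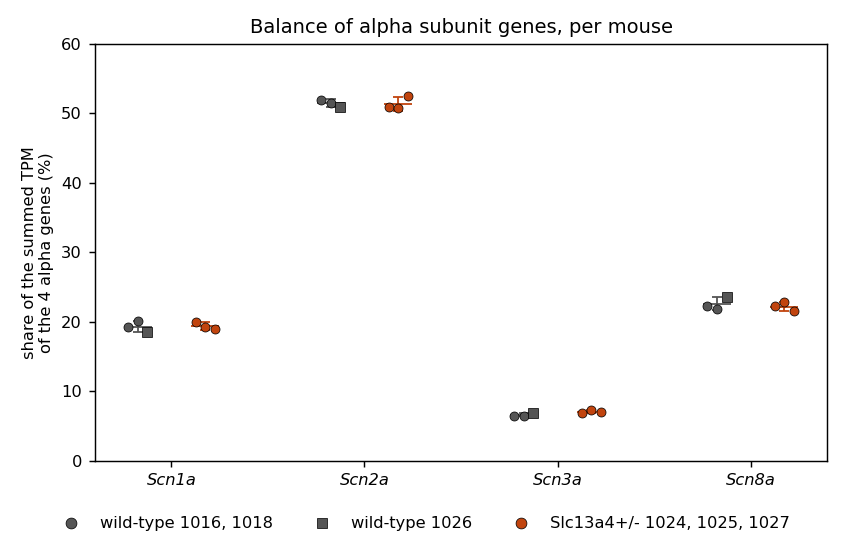
Share of the summed TPM of the 4 alpha genes held by each gene (vertical axis, percent) in each mouse, wild-type in grey with Nas2Del_WT_1026 as a square and Slc13a4+/- in orange, with mean and SD. Scn2a holds 50.7% to 52.5% in every mouse and Scn3a 6.47% to 7.27%.

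Other ratios overlapped between genotypes. Scn8a as a percentage of Scn2a, which compares the mature with the early channel of the initial segment, was 43.2 ± 1.998 in the Slc13a4+/- mice and 43.9 ± 2.18 in the wild-type mice (exact permutation p = 0.7, n = 3). Scn2b held 63.8% ± 0.610 and 63.5% ± 0.207 of the TPM of the beta pair (exact permutation p = 0.7). The beta pair reached 52.6% ± 1.28 and 54.0% ± 2.63 of the alpha genes (exact permutation p = 0.7). Without Nas2Del_WT_1026 this last difference was -2.72 in place of -1.47 percentage points, and that of Scn8a as a percentage of Scn2a was 0.526 in place of -0.724, both with overlap in TPM.

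Of 52 annotated transcripts of the 6 genes, 36 had enough counts to be tested and 5 had no count in any mouse. edgeR called 0 of 36 transcripts at an adjusted p under 0.1 (lowest adjusted p = 0.665) and 0 at an unadjusted p under 0.05, against 0% and 7.41% of 54721 transcripts tested. The 17 transcripts with a share of at least 5% of the TPM of their gene overlapped between genotypes in all 17 cases, while 12.7% of 30501 transcripts with 5% to 95% of their gene did not. Without Nas2Del_WT_1026 the Slc13a4+/- mice were all above for 4 of the 17 (Scn1a-203, Scn2a-205, Scn3a-203 and Scn8a-205) and all below for 3 (Scn1a-204, Scn2a-204 and Scn3b-207), where 23% of the 30501 did not overlap. Salmon divides reads among similar transcripts by a model, and the error of that division is not in these p-values.

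In Scn1a, Scn1a-204 held 49.2% ± 4.82 of the TPM in the Slc13a4+/- mice and 57.8% ± 8.31 in the wild-type mice (SD, n = 3). Scn1a-203, in which a splice donor further downstream makes 1 exon 381 bases long in place of 348, held 29.4% ± 1.19 and 28.5% ± 2.49. Scn1a-201, which has the same 348-base form as Scn1a-204, held 16.7% ± 4.51 and 9.83% ± 6.25. Of these 17 transcripts it had the widest relative spread, from 527 to 5105 counts, and a log2 fold change of 0.78 with an SE of 0.59.

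In Scn2a, Scn2a-201 with exon 5N held 51.0% ± 0.510 and 50.7% ± 1.21 in Slc13a4+/- and wild-type mice, and Scn2a-205 with exon 5A held 32.4% ± 0.580 and 31.7% ± 0.591. Scn2a-204, a shorter transcript of 1810 bases with exon 5A, held 11.3% ± 0.905 and 12.6% ± 1.12. These 3 transcripts varied by a few percent between mice.

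In Scn3a, Scn3a-202 with exon 5A held 79.9% ± 1.91 and 82.5% ± 1.80, and the longer Scn3a-201, also with 5A, held 5.37% ± 0.440 and 4.81% ± 0.540. Scn3a-203, the only annotated transcript with exon 5N, is 365 bases long. It held 10.8% ± 0.809 and 9.93% ± 1.88 of the TPM but had only 15.0 to 31.3 counts, since TPM divides by length.

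In Scn8a, Scn8a-205 held 44.8% ± 0.994 and 43.6% ± 0.672, and Scn8a-203, with a last exon of 2070 bases in place of 6389, held 34.2% ± 1.66 and 35.7% ± 2.99. Both hold exon 5A. Scn8a-212, with exon 5N, held 10.8% ± 1.49 and 10.4% ± 1.08.

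The beta subunit genes were simpler. Scn2b-202 took all counts of Scn2b. In Scn3b, Scn3b-201 held 60.9% ± 2.13 and 61.6% ± 3.47, Scn3b-203 held 21.9% ± 1.33 and 20.5% ± 0.924, Scn3b-202 held 6.91% ± 0.699 and 6.72% ± 1.16, and Scn3b-207 held 6.79% ± 0.639 and 7.66% ± 1.32.

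**Figure D4:**
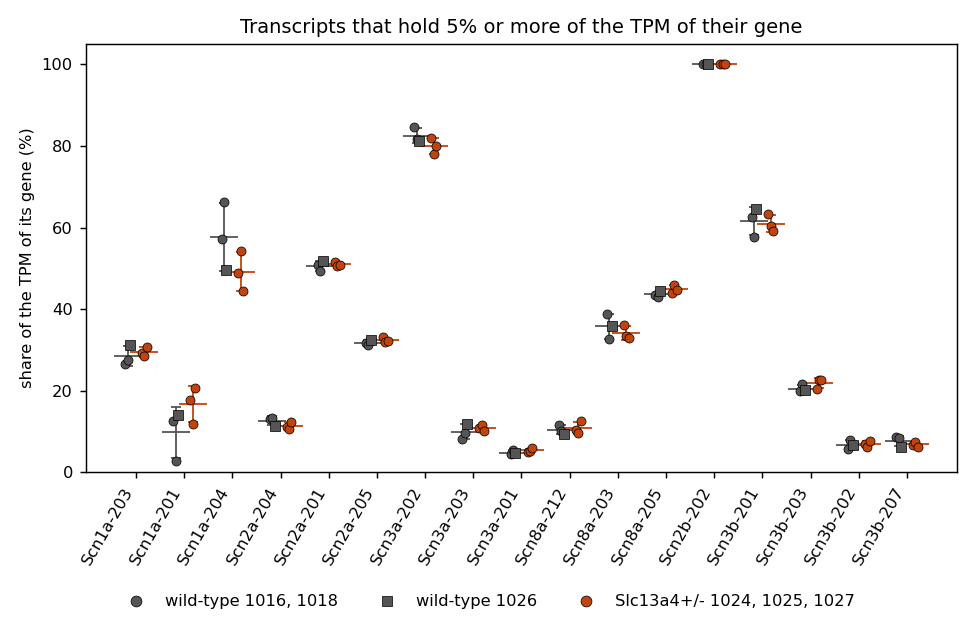
Share of the TPM of its gene (vertical axis, percent) for each of the 17 transcripts that hold 5% or more, in each mouse, wild-type in grey with Nas2Del_WT_1026 as a square and Slc13a4+/- in orange, with mean and SD. The genotypes overlap for all 17, and Scn1a-201 and Scn1a-204 spread most between mice.

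By the exon of the pair that they hold, the transcripts were grouped into neonatal and adult forms. In Scn2a, transcripts with 5N held 53.9%, 54.7% and 53.3% of the TPM of all transcripts with either exon in the Slc13a4+/- mice, and 53.1%, 52.9% and 54.8% in the wild-type mice. The groups overlapped (exact permutation p = 0.6). Without Nas2Del_WT_1026 they did not, with a difference of 0.967 percentage points in place of 0.364. In estimated counts the 5N share was 67.2% ± 0.352 and 67.4% ± 0.480. The transcripts with 5N, Scn2a-201 and Scn2a-202, are also those with a last exon of 3814 bases, while Scn2a-205 has 1422, so the use of exon 5N and of the long last exon cannot be told apart in these values.

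In Scn8a the 5N share was 14.5%, 15.4% and 18.1% in the Slc13a4+/- mice and 13.0%, 16.9% and 13.8% in the wild-type mice, with overlap (exact permutation p = 0.5). In estimated counts it was 5.24% ± 0.901 and 5.19% ± 1.63. The annotation has 7 transcripts of Scn8a with 5N and 3 with 5A. In Scn3a the 5N share was 11.2%, 12.2% and 10.4% against 8.45%, 9.97% and 12.2% (exact permutation p = 0.4), and 0.321% ± 0.0302 and 0.288% ± 0.0598 of counts. Without Nas2Del_WT_1026 the difference for Scn3a was 2.07 percentage points of TPM in place of 1.07, with no overlap. By counts, Scn3a was thus measured almost wholly through transcripts with the adult exon, while by TPM 5N held 8.45% to 12.2%. The limit is that its 5N exon is annotated in 1 short transcript only.

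**Figure D5:**
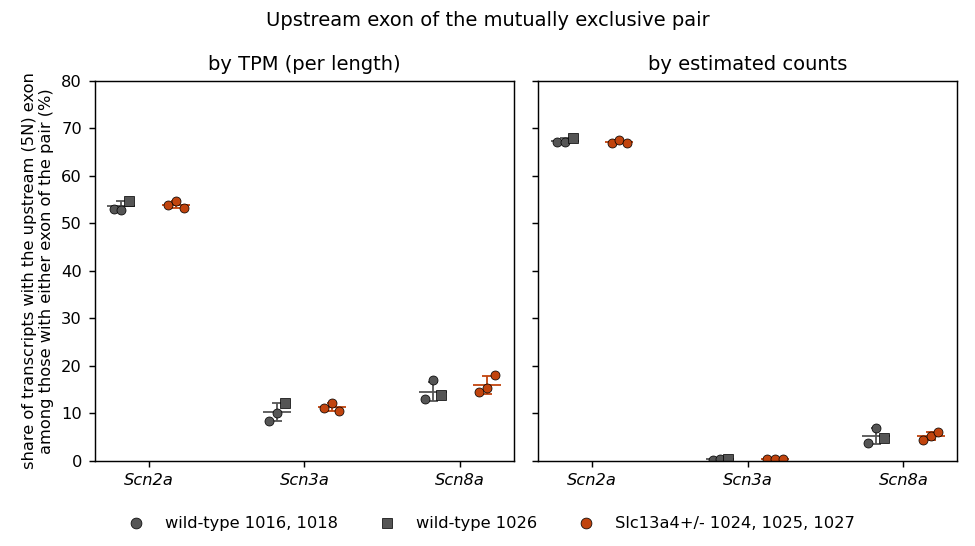
Share of transcripts with the upstream 5N exon among transcripts with 5N or 5A (vertical axis, percent), by TPM on the left and by estimated counts on the right, in each mouse with mean and SD. The share is above 50% in every mouse for Scn2a only, and falls from TPM to counts for Scn3a and Scn8a, where 5N lies in shorter transcripts.

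Among transcripts with either form of the last exon, those of Scn2a with the long form held 60.9%, 61.6% and 61.2% of TPM in the Slc13a4+/- mice and 61.6%, 61.6% and 62.1% in the wild-type mice. All Slc13a4+/- mice were lower, by 0.506 percentage points in the mean, at the smallest exact permutation p of 0.1 (adjusted p = 0.625 over 10 such groupings). The highest Slc13a4+/- mouse was at 61.593% and the lowest wild-type mouse at 61.597%. Of these 10 groupings it was the only one without overlap, where 12.7% of the 30501 single transcripts above did not overlap. Without Nas2Del_WT_1026 the difference was -0.342 percentage points, still without overlap. Then 3 other groupings did not overlap either, the 5N shares of Scn2a and Scn3a and the 381-base form of Scn1a-203. Of the 30501 single transcripts, 23% did not overlap without this mouse.

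Some annotated exons of the alpha genes mark transcripts without a full channel. They are shown because they are a known route by which channel level is set after transcription, with Scn1a transcripts of this kind most studied. All bases are in lower case, with nothing marked.
Scn1a, 64-base exon of Scn1a-208, minus strand, chr2:66293832-66293895: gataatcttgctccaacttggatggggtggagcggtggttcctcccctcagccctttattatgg
Scn8a, 68-base exon of Scn8a-209, plus strand, chr15:101023839-101023906: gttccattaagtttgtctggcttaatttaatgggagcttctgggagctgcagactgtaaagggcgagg
Scn1a-208 is annotated as a target of nonsense-mediated decay. It held 2.27%, 2.37% and 2.74% of the TPM of Scn1a in the Slc13a4+/- mice and 2.71%, 1.91% and 2.55% in the wild-type mice (exact permutation p = 0.8, 162.5 to 289.7 counts). Scn8a-209 is annotated without a coding sequence and held 2.12%, 1.01% and 0.449% against 0.934%, 2.16% and 2.78% of the TPM of Scn8a (exact permutation p = 0.4, 11.9 to 87.8 counts), a spread of several-fold within each genotype. Scn8a-208, which leaves out a coding exon of 123 bases that lies just after the 68-base exon, had 236, 474 and 528 counts in the Slc13a4+/- mice and 0, 242 and 124 in the wild-type mice. Its share of Scn8a transcripts that span this region was 2.54% ± 1.005 and 0.864% ± 1.001 with overlap (exact permutation p = 0.2).

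The other sodium channel genes were read from a list of 7, of which 6 were tested. edgeR and DESeq2 called 0 of them, and 0 had an unadjusted p under 0.05 in edgeR, as in each of the other 3 related lists. The list had a median log2 fold change of 0.12 against 0.00 over all genes tested. Scn4b, a beta subunit gene known for resurgent current, had a TPM of 70.5, 66.6 and 67.0 in the Slc13a4+/- mice and 61.2, 56.4 and 68.9 in the wild-type mice. For Scn4b the log2 fold change was 0.11 (SE 0.07, edgeR adjusted p = 0.641), and DESeq2 without Nas2Del_WT_1026 called it at 0.18 (SE 0.06, adjusted p = 0.0458). That fit called 6.54% of 11013 genes. Nalcn, the sodium leak channel, had a mean TPM of 66.5 and a log2 fold change of 0.00.

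The alpha genes of muscle and sensory neurons, and Scn7a, a related channel gene, were near the floor. The mean TPM was 2.12 for Scn7a, 1.30 for Scn9a, 0.171 for Scn11a, 0.128 for Scn10a and 0.0283 for Scn4a, which was too low to be tested. The log2 fold changes of the others ran from 0.08 (Scn9a, SE 0.09) to 0.27 (Scn11a, SE 0.30). Scn10a was the only gene of the list with all Slc13a4+/- mice above all wild-type mice in normalised counts. This was so for 7.26% of all genes tested.

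Genes whose products hold sodium channels at the axon initial segment and node were called in 0 of 15 cases by edgeR and DESeq2 (median log2 fold change 0.01). The smallest p in edgeR were those of the adhesion molecules Cntn2 (-0.07, SE 0.04), Cntnap1 (-0.08, SE 0.06) and Nrcam (0.04, SE 0.04). Without Nas2Del_WT_1026 DESeq2 called Sptan1, which codes for a spectrin chain (0.15, SE 0.04, adjusted p = 0.0196), and the potassium channel gene Kcna2 (0.11, SE 0.03, adjusted p = 0.0434). It then called 6.54% of 11013 genes. With a covariate for the order of animal numbers, only Nas2Del_WT_1026 stands for wild-type. There the log2 fold change of Ank3, the ankyrin that anchors the channels, was -0.25 (SE 0.05) in edgeR.

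Channel partners and regulators were called in 0 of 16 cases by edgeR and DESeq2 (median -0.01). Fgf14, an intracellular factor that binds the channel tail, had 0.09 (SE 0.04, edgeR adjusted p = 0.578). Of the 16 genes it alone had all Slc13a4+/- mice above all wild-type mice, as did 7.26% of all genes tested. The kinase genes Fyn (-0.06, SE 0.04) and Prkaca (-0.06, SE 0.04) had all Slc13a4+/- mice below, for which the share over all genes was not counted. Without Nas2Del_WT_1026 edgeR called the kinase gene Prkca (0.17, SE 0.03, adjusted p = 0.0964), where 1.29% of 17337 genes were called.

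Regulators of neuronal splicing and repression were called in 0 of 10 cases by either tool (median 0.01). Rbfox1, a splicing factor of neurons, had 0.08 (SE 0.05), Ptbp2 had 0.04 (SE 0.04), and Rest, a repressor of neuronal genes including sodium channels, had -0.12 (SE 0.07, edgeR adjusted p = 0.623). Without Nas2Del_WT_1026 DESeq2 called Rbfox1 (0.11, SE 0.04, adjusted p = 0.0486) and Rbfox3 (0.11, SE 0.04, adjusted p = 0.0974). It then called 6.54% of 11013 genes. With the covariate, where Nas2Del_WT_1026 is the only wild-type mouse, the log2 fold change of Nova2 was -0.50 (SE 0.07) in edgeR.

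Markers checked the tissue. The summed TPM of 8 neuronal markers was 4950 to 5010 in Slc13a4+/- and 4857 to 5047 in wild-type libraries, and those of excitatory neurons, parvalbumin interneurons, oligodendrocyte precursors and oligodendrocytes overlapped likewise. The 6 cerebellum and hindbrain markers summed to 5.63 TPM at most, with 2 of them at 0 in some mouse. Other lists were lower in all Slc13a4+/- mice than in all wild-type mice. These were the sums of 8 immature neuron markers (234 to 242 against 254 to 267), 6 astrocyte markers (871 to 908 against 931 to 937), 6 microglia markers (379.7 to 383 against 389.7 to 419.5), 5 choroid plexus markers (740.3 to 853 against 889 to 893) and 7 genes of tissue handling (4243 to 4293 against 4367 to 4652). DESeq2 called Tubb2b, S100b, Ttr and Dnajb1 lower among these, where 0.487% of 17659 genes were called in either direction. By single genes in normalised counts, all Slc13a4+/- mice were below all wild-type mice for 3 of 8 immature neuron and 2 of 6 astrocyte markers. The same held for 3 of 6 microglia markers, 1 of 5 choroid plexus markers and 5 of 7 tissue handling genes. It also held for 2 of 8 neuronal and 2 of 6 oligodendrocyte markers, whose sums overlapped. It held for 0 of 9 excitatory neuron, 0 of 7 parvalbumin interneuron and 0 of 4 oligodendrocyte precursor markers. Of the astrocyte markers, 1 was above in all Slc13a4+/- mice. Over all genes tested, only the share wholly above was counted (7.26%). The share wholly below was not, so whether these numbers of markers wholly below differ from those of other genes was not tested. The 5 sums that were lower did not overlap without Nas2Del_WT_1026 either. Then the sums of neuronal and excitatory neuron markers were above, and that of oligodendrocyte markers below, in all Slc13a4+/- mice. The part of these lists in the values of the sodium channel genes was not tested.

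The pattern of each gene over the 6 mice was compared with those of 17096 genes by the root mean square difference of log2 CPM centred on its own mean. Among the members, Scn2b and Scn3b were the closest pair (0.0176) and Scn2a and Scn3a the closest pair of alpha genes (0.0403). The 3 nearest genes were Thnsl1, Macrod2 and Tgfb2 for Scn1a, Zbtb44, Csrnp3 and Slc37a3 for Scn2a, and Dph6, Lamc3 and Nup210 for Scn3a. They were Mrtfb, Crtc1 and Foxk1 for Scn8a, Nbr1, Snx19 and Syt11 for Scn2b, and Clcn6, Cadm1 and Plpp6 for Scn3b. The nearest of all was Clcn6 to Scn3b (0.00565), and the spread of a member about its own mean ran from 0.03 for Scn3b to 0.10 for Scn8a. These are descriptions over 6 mice, in which genes that vary little lie near each other.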

How the data were processed

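Total RNA of the whole forebrain was made into stranded, rRNA-depleted libraries and sequenced as paired-end reads. The authors quantified transcripts with Salmon (v1.2.0) with correction for GC bias and deposited, for each transcript, its length, its effective length, the estimated count (NumReads) and the TPM. No source used here names the transcript set or build of the index.

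Of 117135 transcripts, 115973 matched GENCODE M21 (GRCm38) by identifier, 115410 of them with the same version. The other 1162 (0.620% to 0.645% of counts) were left out. Counts were summed per gene, rounded and tested with the quasi-likelihood test of edgeR 4.0.16 (filterByExpr, TMM) in R 4.3.3, with Benjamini-Hochberg adjustment over all genes tested and the threshold of the study, an adjusted p under 0.1. DESeq2 1.42.0 (Wald test, average transcript lengths as offsets) was run beside it, as the study used DESeq2. Fold changes are unshrunken. TPM as deposited was summed per gene for levels and shares, which were compared by exact two-sided permutation tests over mice (scipy 1.17.1). Exon sequences were read from the GENCODE M21 transcripts. edgeR and the script were tested on simulated data.

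The text names all 6 members, their transcripts with at least 5% of the TPM of the gene, the other sodium channel genes, up to 3 genes with the smallest p in each related list, and the 3 nearest patterns of each member. Genes of these lists called only in an alternative (Ank3, Sptan1, Kcna2, Prkca, Rbfox3 and Nova2) were named after their values were seen. Some genes and sequences that this rule takes are not reported here. Members and lists were chosen with earlier results of these data known. The alternatives were other normalizations, filters, offsets and sets of transcripts, fits without each mouse in turn, a covariate for the order of animal numbers (which parts Nas2Del_WT_1016 and Nas2Del_WT_1018 from the later 4) and the later 4 animals alone. DESeq2 without Nas2Del_WT_1026, the 5N shares in counts or without each mouse, and levels, transcript shares and marker sums without Nas2Del_WT_1026, were chosen after seeing the data.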

Additional observations from a re-analysis of the deposited data

How the results depend on the processing

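Of 102 log2 fold changes of the 6 genes under alternatives, 23 had the opposite sign to the reported value and 3 passed the threshold. The order of the animal numbers, entered as a covariate, gave -0.017 (Scn1a), -0.095 (Scn2a), -0.042 (Scn3a), -0.18 (Scn8a), -0.0498 (Scn2b) and -0.056 (Scn3b). The last 4 animals alone gave -0.00012 (Scn1a), -0.078 (Scn2a), -0.025 (Scn3a), -0.16 (Scn8a), -0.033 (Scn2b) and -0.039 (Scn3b). In both fits the Slc13a4+/- mice are set against Nas2Del_WT_1026 only, with its spread taken from the other mice. DESeq2 with length offsets gave -0.00084 (Scn8a), -0.0012 (Scn2b) and -0.019 (Scn3b), and edgeR with length offsets gave -0.017 (Scn3b). Leaving out each mouse gave 0.0014 to 0.062 (Scn1a), 0.0056 to 0.11 (Scn2a), 0.066 to 0.18 (Scn3a), -0.0499 to 0.11 (Scn8a), -0.017 to 0.034 (Scn2b) and -0.017 to 0.034 (Scn3b). The number of members called was 1 in edgeR without Nas2Del_WT_1026 and 2 in DESeq2 without it, where Scn3a had 0.22 and Scn8a 0.098, and 0 in every other fit. The differences between genotypes in the 8 shares and ratios moved by less than 1 SD between mice under each alternative run for them. Their levels depend on the unit, and the beta pair reached 30.5% and 31.2% of the alpha genes in Slc13a4+/- and wild-type mice in estimated counts, where the Scn3a share also lost its overlap. Transcript values that changed sign lay, with each mouse left out, at -0.026 to 0.16 (Scn1a-203), -0.033 to 0.0799 (Scn2a-201), -0.0071 to 0.098 (Scn2a-205), -0.069 to 0.11 (Scn8a-212), -0.20 to 0.0074 (Scn8a-203), -0.0499 to 0.12 (Scn8a-205), -0.055 to 0.00073 (Scn2b-202) and -0.10 to 0.11 (Scn3b-202). With DESeq2 size factors in edgeR they were -0.0026 (Scn2a-201), -0.00203 (Scn8a-205) and -0.0085 (Scn3b-202). The cause was not tested. No paired analysis was possible because the groups share no replicate numbers and no source used here assigns the mice to litters.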
